A study of Mus musculus with 4 samples.

Results

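The genes examined encode tubulins, kinesins, cytoplasmic dynein and dynactin, in RNA labelled as coming from MLE-12, a transformed epithelial cell line of mouse lung. Members were the protein-coding genes whose symbols begin with Tuba, Tubb, Tubg, Kif followed by a digit, Dync, Dynll, Dynlt or Dctn, which gave 82 of the 53465 genes in the count table. Polyadenylated RNA was sequenced from 2 libraries of cells kept with 5 µM 1-nitropyrene, a nitrated polycyclic hydrocarbon of diesel exhaust, for 12 h (replicates 2 and 3) and from 2 control libraries kept without it (replicates 1 and 2). No genetic change or other agent is given for either group. The design text names translation of Fbxw7 mRNA as the study's question, and the comparison below asks which RNAs of the microtubule motor system differed between these libraries.

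Microtubules are hollow polymers of dimers of alpha- and beta-tubulin, and gamma-tubulin in a ring-shaped complex starts their growth. Most kinesins walk along them towards the plus end and carry vesicles, organelles and mRNAs, while others build the mitotic spindle or take microtubules apart. Cytoplasmic dynein, with its activator dynactin, carries cargo towards the minus end. In epithelial cells this system positions organelles, builds the primary cilium and divides the chromosomes. Cells also hold tubulin production in check: when free tubulin dimers are plentiful, tubulin mRNAs are degraded while they are translated, a process that reads the first amino acids of the growing alpha- or beta-tubulin chain.

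The libraries held 8797502 and 8601825 counts with 1-nitropyrene and 10773733 and 6908055 counts in controls, and the members took 0.598% and 0.606% of them with 1-nitropyrene and 0.555% and 0.558% in controls. Loci of ribosomal RNA took 44.2% to 45.9% of the counts. Of 14 markers of lung epithelium and alveolar type 2 cells, 10 had 0 counts in all 4 libraries, among them Sftpb, Nkx2-1, Epcam, Cdh1, Krt8 and Krt18, and the marker sum was 14.9 and 14.3 CPM of total counts with 1-nitropyrene and 14.7 and 13.5 in controls. The highest of the 14 was Abca3, at 8.92 CPM on average. The defining markers of the labelled cell type were thus mostly absent. The 9 fibroblast markers, of which only Thy1 was at 0 throughout, summed to 1.82 and 1.05 CPM with 1-nitropyrene and 7.43 and 3.91 CPM in controls, and their part in the results below was not tested. Immune, endothelial and motile cilia markers each summed to at most 0.341 CPM in any library, and neuron markers to 3.41 and 2.91 CPM with 1-nitropyrene and 3.90 and 4.63 CPM in controls. Most of the neuron sum was Map2, at 3.51 CPM on average, while Snap25 and Syp had 0 counts. The 13 mitochondrially encoded mRNAs summed to 24.6 and 1.86 CPM with 1-nitropyrene and 46.9 and 30.4 CPM in controls, so that 1-nitropyrene replicate 3 was the lowest library. Of the 21942 protein-coding genes, 55.2% had no count in any library, and each gene name stands for the mouse locus that received the reads. Whether all reads came from the labelled mouse line was not tested, so a gene at 0 is a locus to which no read was assigned, and levels and shares of shared sequence hold only as far as the reads are those of mouse RNA. In bulk RNA, fewer cells with a transcript and less transcript per cell cannot be told apart. Whether the libraries stem from separate cultures is not in the labels, so the p-values reflect no more than the spread among these libraries, which may be technical.

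Of the 82 members, 46 passed the filter on low counts and were tested, 14 had between 1 and 35 counts over the 4 libraries together, and 22 had none. With 1-nitropyrene 14 of the 46 differed at an adjusted p under 0.05 (edgeR's quasi-likelihood test with Benjamini-Hochberg adjustment over all genes tested), 8 higher and 6 lower. That is 30.4% of the tested members, against 24.5% of all 7738 genes tested. The share called higher was 17.4% of the members and 13.2% of all genes, and the share called lower was 13.0% and 11.2%. The median log2 fold change of the tested members was -0.033, and that of all genes was -0.0035, while the median absolute log2 fold change was 0.19 for the members and 0.20 for all genes. As a group the members thus moved about as often and as far as other genes, in both directions. The groups did not overlap in 28 of the 46 members, which is 60.9%, against 59.2% of all genes.

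**Figure D1:**
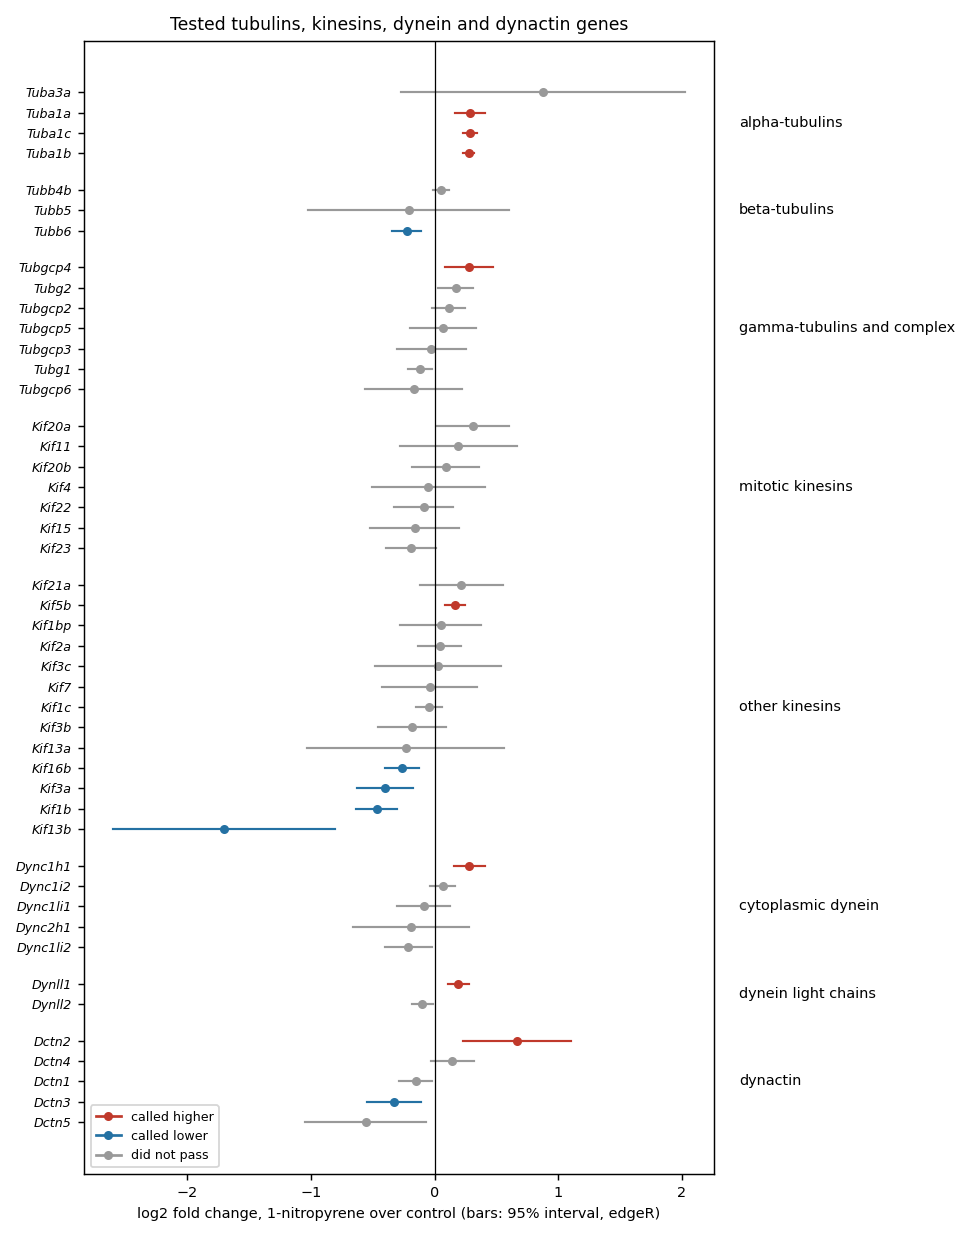
Log2 fold changes (x axis, 1-nitropyrene over control) of the 46 tested members, grouped by role (right) and ordered by size, with 95% intervals from edgeR. The 8 genes called higher (red) include Tuba1a, Tuba1b and Tuba1c, and the 6 called lower (blue) include Kif1b, Kif3a, Kif13b and Kif16b. Of the 7 tested mitotic kinesins 0 passed the test, against 24.5% of all genes.

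All values below, unless stated otherwise, are normalised CPM, in which counts are divided by the TMM-scaled library total, for 2 libraries in each group. A log2 fold change is that of 1-nitropyrene over control with its standard error (SE). Counts of called genes in each role and list below stand against 13.2% of all genes called higher and 11.2% called lower. The fit gave every gene the same dispersion and scaled it by a further factor, which genes of similar level share. That factor did not use the gene's own spread, so a gene whose own libraries lie far apart has no larger error for it.

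The alpha-tubulin genes carried the largest part of the members' counts and are close copies of each other. Over the whole coding sequence (GENCODE M21 on GRCm38) Tuba1a was 98.3% identical to Tuba1b and 97.1% identical to Tuba1c, and Tuba1b was 97.9% identical to Tuba1c.

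Summed alpha-tubulin RNA was 1.21-fold higher with 1-nitropyrene. Tuba1b (GRCm38 chromosome 15, 98931425 to 98934565), the gene of the widely made alpha-tubulin, had 2192 and 2203 CPM with 1-nitropyrene and 1808 and 1822 CPM in controls. It took 36.1% ± 0.2 of all member counts with 1-nitropyrene and 32.9% ± 0.072 in controls (SD, n = 2). Each 1-nitropyrene library lay above both controls, and the gap between the groups was far wider than the spread within them. Tuba1b rose by 0.28 on the log2 scale (SE 0.02, adjusted p = 1.77e-30, edgeR), a ratio of 1.21 with a 95% interval from 1.173 to 1.249. An opposite-strand gene, Gm41396, overlaps 87 bases of its exons.

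Tuba1c (chromosome 15, 99029891 to 99038110), a further widely made alpha-tubulin, had 771 and 877 CPM with 1-nitropyrene and 666 and 686 CPM in controls. The 1-nitropyrene libraries were both higher but lay further apart than the controls. It rose by 0.29 (SE 0.03, adjusted p = 8.03e-20, edgeR), and by between 0.19 and 0.38 with 1 library left out. Tuba1a (chromosome 15, 98949837 to 98953703), the alpha-tubulin prominent in developing neurons, had 119 and 111 CPM with 1-nitropyrene and 98.0 and 88.8 CPM in controls. It rose by 0.29 (SE 0.06, adjusted p = 3.67e-05, edgeR), with no overlap between the groups.

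These 3 genes lie near each other on chromosome 15, and their rises cannot be counted as independent. Of the stretches of 50 bases in their annotated transcripts, 75.1% in Tuba1b, 75.5% in Tuba1a and 52.7% in Tuba1c also occur in transcripts of other genes, mostly of each other, so reads could be assigned to the wrong copy. Tuba1a counts were 5.42% and 5.03% of Tuba1b counts with 1-nitropyrene and 5.42% and 4.87% in controls. Tuba1c counts were 35.2% and 39.8% of Tuba1b counts with 1-nitropyrene and 36.9% and 37.6% in controls. Both proportions overlapped between the groups, so no shift between these genes was seen beside their rise.

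Of the other alpha-tubulins, Tuba3a, a testis-type gene, had 13 and 12 counts with 1-nitropyrene and 10 and 4 in controls and did not pass the test (0.88, SE 0.59, adjusted p = 0.294, edgeR). Tuba3b, Tuba4a and Tuba8 had 1 or 2 counts each over all 4 libraries, and Tubal3 had 0.

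Of 3 tested beta-tubulin genes, 1 fell and 2 did not pass the test. Tubb4b (chromosome 2, 25222160 to 25224702), the gene with most of the beta-tubulin counts, had 640 and 621 CPM with 1-nitropyrene and 613 and 601 CPM in controls. The groups did not overlap, but the difference of 0.05 on the log2 scale did not pass the test (SE 0.03, adjusted p = 0.229, edgeR). The 95% interval of its ratio, 0.994 to 1.08, lay below that of Tuba1b. Of its stretches of 50 bases 41.3% also occur in other genes, chiefly in its processed pseudogene Tubb4b-ps1. Tubb6 (chromosome 18, 67390717 to 67402749), a beta-tubulin less widely made, had 97.7 and 106 CPM with 1-nitropyrene and 118 and 120 CPM in controls. It fell by 0.22 on the log2 scale (SE 0.06, adjusted p = 0.00158, edgeR), but it missed the threshold in DESeq2 (adjusted p = 0.0678), as it did in edgeR once 1-nitropyrene replicate 2 was left out (adjusted p = 0.0813).

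Tubb5, the main beta-tubulin gene of dividing cells, had only 18 and 17 counts with 1-nitropyrene and 29 and 13 in controls. Of its stretches of 50 bases 0.0892% occur in other genes, and the cause of its low counts was not tested. Per kilobase of exon its level was 0.611 normalised CPM with 1-nitropyrene and 0.68 in controls, against 302 with 1-nitropyrene and 291 in controls for Tubb4b. It did not pass the test (-0.21, SE 0.41, adjusted p = 0.774, edgeR). Tubb2a and the neuronal Tubb3 had 1 count each, and Tubb1, Tubb2b and Tubb4a had 0.

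Summed over all members of each kind, alpha-tubulins had 3083 and 3193 CPM with 1-nitropyrene and 2573 and 2597 CPM in controls. Beta-tubulins had 740 and 729 CPM with 1-nitropyrene and 734 and 724 CPM in controls. The ratio of alpha- to beta-tubulin counts was 4.27 ± 0.149 with 1-nitropyrene and 3.55 ± 0.0581 in controls (SD, n = 2), with no overlap. A difference between alpha- and beta-tubulins in their response was not tested, and the ratio in counts is not a ratio of proteins.

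**Figure D2:**
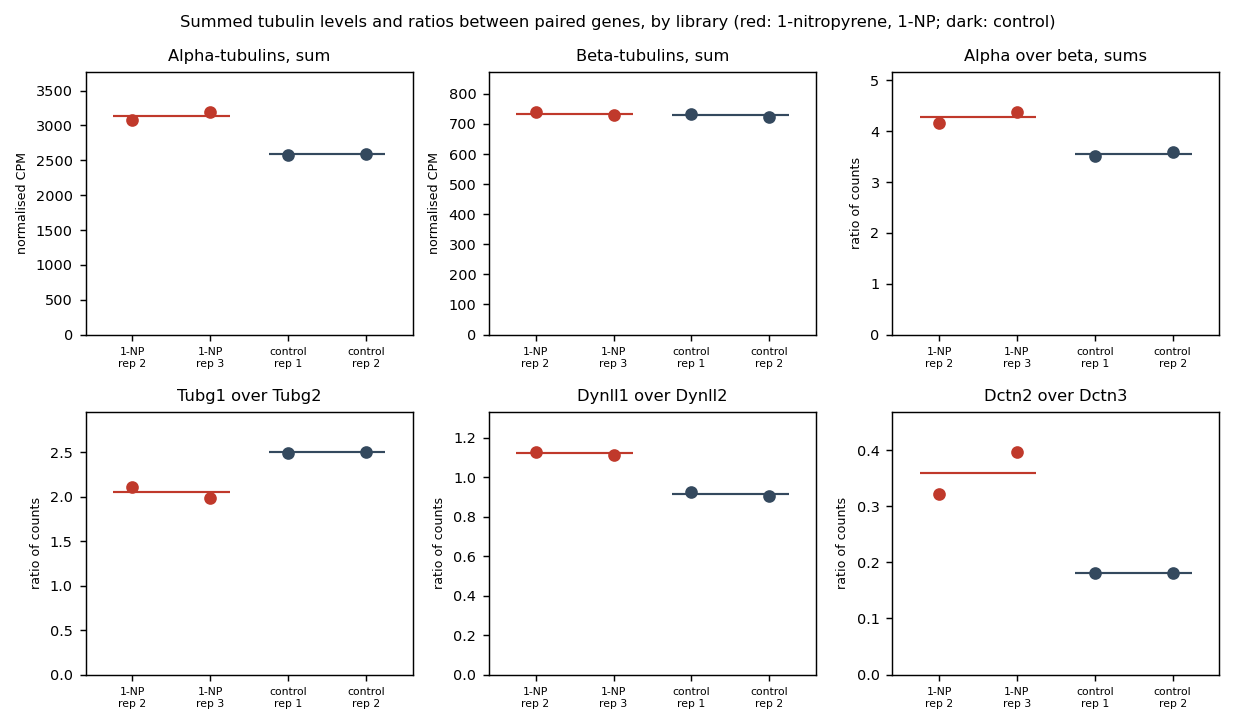
Summed normalised CPM of alpha- and beta-tubulins and ratios of counts between genes in each library (points), with group means (lines), 1-nitropyrene in red and control in dark. The alpha-tubulin sum was 3138 against 2585 CPM on average and the beta-tubulin sum 734 against 729 CPM. The libraries of the groups do not overlap in any of the 4 ratios shown. Each of these sets genes against each other whose own values moved apart, so the separation adds no support. Of ratios not shown, those of Kif3a to Kif3b and of Tuba1a or Tuba1c to Tuba1b overlapped, and that of Kif5b to Kif1b did not.

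Of the 7 tested genes of gamma-tubulin and its ring complex, which nucleate microtubules at the centrosome, 1 passed the test. Tubgcp4 (chromosome 2, 121170654 to 121198770), a subunit of the ring, had 40.0 and 41.9 CPM with 1-nitropyrene and 35.1 and 31.8 CPM in controls. It rose by 0.28 (SE 0.10, adjusted p = 0.0266, edgeR), but 2187 bases of its exons overlap genes on the opposite strand, chiefly Trp53bp1, and the strand setting of the counting is not given in the sources used here. Trp53bp1 itself did not pass, at 0.21 (SE 0.10, adjusted p = 0.11, edgeR). The Tubgcp4 call ended in DESeq2 (adjusted p = 0.224), in the fit without scaling factors (adjusted p = 0.0537, edgeR) and without either control or 1-nitropyrene replicate 3 (adjusted p up to 0.226, edgeR).

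The gamma-tubulin genes lay on opposite sides. Tubg1 (chromosome 11), the form made in most cells, had 161 and 155 CPM with 1-nitropyrene and 165 and 179 CPM in controls (-0.12, SE 0.05, adjusted p = 0.0698, edgeR). Tubg2, the form best known from brain, had 76.3 and 77.6 CPM with 1-nitropyrene and 66.1 and 71.6 CPM in controls (0.17, SE 0.07, adjusted p = 0.0696, edgeR). Neither passed the test, although the groups did not overlap in either gene. Tubg1 passed in other fits, with upper quartile factors (adjusted p = 0.0428, edgeR), without scaling factors (0.017) and without control replicate 1, where its value was -0.19 (0.0388). Without control replicate 2 it was -0.067. The ratio of Tubg1 to Tubg2 counts was 2.11 and 1.99 with 1-nitropyrene and 2.50 and 2.51 in controls. The coding sequences are 93.3% identical.

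The other ring subunits did not pass. Tubgcp2, which with Tubgcp3 forms the core small complex, had 85.8 and 91.4 CPM with 1-nitropyrene and 86.2 and 75.9 CPM in controls, and Tubgcp3 had 18.7 and 17.7 CPM with 1-nitropyrene and 19.7 and 16.9 CPM in controls. Tubgcp5 had 18.6 and 22.4 CPM with 1-nitropyrene and 19.4 and 19.8 CPM in controls. Their log2 fold changes lay between -0.03 and 0.11. Tubgcp6 was below the level at which members are described singly, with a log2 fold change of -0.17 (SE 0.20).

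Of 13 tested genes with Kif symbols outside the mitotic ones, 4 fell and 1 rose, against 11.2% and 13.2% of all genes. They are mostly cargo carriers and include Kif1bp, which is not a kinesin itself. Among the falls, the smallest p was that of Kif1b (chromosome 4, 149176319 to 149307693), a motor of the kinesin-3 family that carries mitochondria and vesicle precursors. It had 40.6 and 48.9 CPM with 1-nitropyrene and 61.1 and 62.7 CPM in controls. Both 1-nitropyrene libraries were well below both controls, and the difference exceeded the spread between replicates. It fell by 0.47 on the log2 scale (SE 0.08, adjusted p = 6e-07, edgeR), and its ratio of 0.723 had a 95% interval from 0.645 to 0.811. This call held in DESeq2 (adjusted p = 0.00421), against a null of a 1.2-fold change and with each library left out, where the log2 fold change was between -0.61 and -0.34.

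Kif16b (chromosome 2, 142617474 to 142901531), a kinesin-3 motor that moves early endosomes, had 66.7 and 70.0 CPM with 1-nitropyrene and 80.4 and 83.9 CPM in controls. It fell by 0.26 on the log2 scale (SE 0.07, adjusted p = 0.00192, edgeR), a call kept with each library left out and lost in DESeq2 (adjusted p = 0.0703). Kif3a (chromosome 11, 53567379 to 53601967), a subunit of the kinesin-2 motor that builds cilia, had 24.1 and 25.5 CPM with 1-nitropyrene and 34.1 and 30.6 CPM in controls. It fell by 0.40 (SE 0.11, adjusted p = 0.00351, edgeR), a call lost in DESeq2 (adjusted p = 0.113) and without control replicate 1 (adjusted p = 0.202, edgeR).

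Kif13b (chromosome 14, 64647265 to 64809617), a further kinesin-3 motor, had the steepest change at the lowest level. It had 13 and 4 counts with 1-nitropyrene and 30 and 28 counts in controls, and fell by 1.70 on the log2 scale (SE 0.46, adjusted p = 0.00158, edgeR). The value ranged from -2.75 to -1.11 with 1 library left out, and the call was lost without control replicate 2 or 1-nitropyrene replicate 3 (adjusted p up to 0.11, edgeR). DESeq2 gave no adjusted p for it. The related Kif13a did not pass, with 14 and 22 counts with 1-nitropyrene and 31 and 13 in controls.

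Kif5b (chromosome 18, 6201002 to 6242174), the heavy chain of conventional kinesin in most tissues, had the highest level of the kinesins per kilobase of exon, 36.9 normalised CPM with 1-nitropyrene and 32.9 in controls. It had 305 and 284 CPM with 1-nitropyrene and 268 and 257 CPM in controls. The groups did not overlap, although the 1-nitropyrene libraries lay further apart than the controls. It rose by 0.16 (SE 0.04, adjusted p = 0.000665, edgeR), and 324 bases of its exons overlap opposite-strand genes. DESeq2 placed it at the threshold (adjusted p = 0.0502), and the call was lost without control replicate 2 or 1-nitropyrene replicate 2 (adjusted p up to 0.0935, edgeR). The ratio of Kif5b to Kif1b counts was 7.51 and 5.82 with 1-nitropyrene and 4.38 and 4.10 in controls. The neuronal heavy chains Kif5a and Kif5c had 6 and 4 counts in all.

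**Figure D3:**
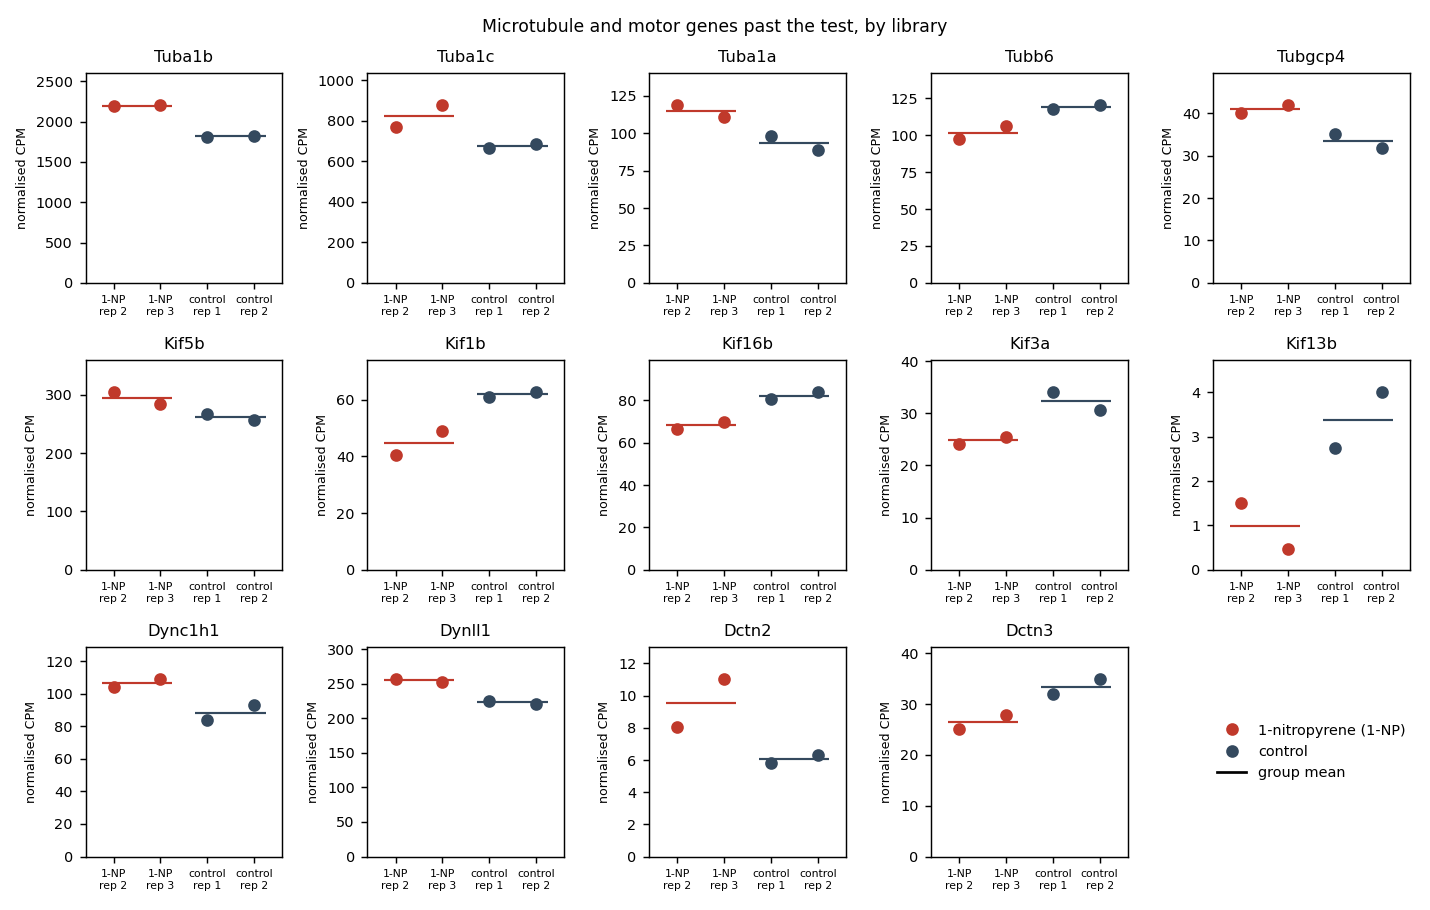
Normalised CPM (y axis, from 0) of the 14 members past the test in each library, with group means as lines, 1-nitropyrene in red on the left and control in dark on the right of each panel. The libraries of the groups do not overlap in any panel, which adds no support because these genes were picked on the same values. Among all genes tested, 59.2% had groups that did not overlap. The differences are small beside the levels except for Kif13b and Dctn2, whose levels were below 12 CPM.

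The other tested transport and regulatory kinesins did not pass. Kif1c, a kinesin-3 motor of adhesion sites and the Golgi, had 147 and 140 CPM with 1-nitropyrene and 146 and 150 CPM in controls, so its change (-0.05, SE 0.05) contrasts with that of Kif1b, though the difference between them was not tested. Kif3b, the partner of Kif3a, had 19.4 and 16 CPM with 1-nitropyrene and 19.7 and 20.8 CPM in controls (-0.18, SE 0.14, adjusted p = 0.378, edgeR), and the ratio of Kif3a to Kif3b counts overlapped between the groups. Kif2a, which takes microtubules apart, had 47.1 and 50.7 CPM with 1-nitropyrene and 45.1 and 51.0 CPM in controls (0.04, SE 0.09). Kif21a, which restrains microtubule growth, had 13.9 CPM in both libraries with 1-nitropyrene and 10.4 and 14.3 CPM in controls (0.22, SE 0.17). Kif1bp, a kinesin-binding protein and not a motor, had 12.9 and 14.7 CPM with 1-nitropyrene and 12.7 and 14.2 CPM in controls (0.05, SE 0.17). Kif3c and Kif7, the Hedgehog regulator of the cilium, had log2 fold changes of 0.03 (SE 0.26) and -0.04 (SE 0.20). Kif26b and Kif27 had 8 and 3 counts in all, and Kif12, Kif17, Kif19a, Kif1a, Kif21b, Kif26a, Kif28, Kif2b, Kif6 and Kif9 had 0.

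Of 12 kinesins grouped here as mitotic, a chosen list that includes Kif24 and leaves out Kif2a and Kif2b, 7 were tested. Of these 0 passed in edgeR, where 24.5% of all genes passed, or in DESeq2. With 7 genes and standard errors up to 0.24, a count of 0 cannot set them apart from other genes. Of the 7, 1, Kif20a, was below the threshold before adjustment. Kif20a, which acts in cytokinesis, had 18 and 19.6 CPM with 1-nitropyrene and 15.6 and 14.5 CPM in controls (0.31, SE 0.15, adjusted p = 0.118, edgeR), and 1271 bases of its exons overlap Cdc23 on the opposite strand. Kif23, of the central spindle, had 32.1 and 31.5 CPM with 1-nitropyrene and 33.9 and 39.7 CPM in controls (-0.19, SE 0.10, adjusted p = 0.185, edgeR). The values of these motors scattered on both sides of 0.

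Kif22, which moves chromosome arms, had 25.5 and 23.5 CPM with 1-nitropyrene and 24.9 and 27.6 CPM in controls, and Kif20b had 19.8 and 21 CPM with 1-nitropyrene and 19.0 and 19.3 CPM in controls. Kif15, a spindle motor, had 11.6 and 9.63 CPM with 1-nitropyrene and 10.7 and 13.7 CPM in controls. Kif11, which pushes the spindle poles apart, and the chromokinesin Kif4 had log2 fold changes of 0.19 (SE 0.24) and -0.05 (SE 0.23). The summed level of the 12 genes was 121 ± 3.73 CPM with 1-nitropyrene and 123 ± 5.44 CPM in controls (SD, n = 2). Kif24, Kif18b, Kif14 and Kif2c had 35, 5, 1 and 1 counts in all and were not tested, and Kif18a had 0.

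In cytoplasmic dynein the heavy chain rose and the chains that bind cargo did not pass. Dync1h1 (chromosome 12, 110601452 to 110666945), the motor subunit, had 104 and 109 CPM with 1-nitropyrene and 84.0 and 92.8 CPM in controls. It rose by 0.28 (SE 0.06, adjusted p = 9.82e-05, edgeR), which held in DESeq2 (adjusted p = 0.0348) and was lost without control replicate 1 (adjusted p = 0.0994, edgeR). Opposite-strand genes overlap 451 bases of its exons.

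The intermediate chain Dync1i2, which joins the motor to dynactin, had 160 and 147 CPM with 1-nitropyrene and 152 and 140 CPM in controls (0.07, SE 0.05, adjusted p = 0.393, edgeR). The light intermediate chains, which hold the cargo adaptors, were nominally lower. Dync1li1 had 29.2 and 31.9 CPM with 1-nitropyrene and 30.5 and 35.4 CPM in controls (-0.09, SE 0.11), and Dync1li2 had 37.3 and 36.4 CPM with 1-nitropyrene and 44.2 and 40.7 CPM in controls (-0.21, SE 0.10, adjusted p = 0.0949, edgeR). Dync2h1, the heavy chain of the dynein that works inside cilia, had 53 and 55 counts with 1-nitropyrene and 77 and 51 in controls (-0.19, SE 0.24). The neuronal intermediate chain Dync1i1 and the ciliary Dync2li1 had 0 counts.

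The light chains of the LC8 type, small proteins that also join many other complexes, stood apart from each other. Dynll1 (chromosome 5, 115297110 to 115300999) had 257 and 253 CPM with 1-nitropyrene and 225 and 221 CPM in controls, with close replicates in both groups. It rose by 0.19 (SE 0.04, adjusted p = 0.000108, edgeR), and the call held in DESeq2 (adjusted p = 0.0162) and with each library left out. Dynll2 had 228 and 227 CPM with 1-nitropyrene and 243 and 245 CPM in controls (-0.10, SE 0.04, adjusted p = 0.0848, edgeR) and did not pass, although the groups did not overlap. It passed with upper quartile factors (adjusted p = 0.0449, edgeR) and without scaling factors (0.0173). The ratio of Dynll1 to Dynll2 counts was 1.13 and 1.11 with 1-nitropyrene and 0.926 and 0.903 in controls. Their coding sequences are 81.1% identical, and 3.33% of the stretches of 50 bases in Dynll1 and 0 of those in Dynll2 occur in other genes. The light chains of the Tctex type, Dynlt1a, Dynlt1b, Dynlt1c, Dynlt1f and Dynlt3, had 0 counts. In Dynlt1a to Dynlt1f 70.5% to 88.9% of such stretches are shared, in Dynlt3 none.

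Dynactin, the many-subunit activator of dynein, had 1 gene higher and 1 lower of 5 tested. Dctn2 (chromosome 10, 127266368 to 127281950), which encodes dynamitin of the shoulder that ties the arm to the filament, had 70 and 94 counts with 1-nitropyrene and 63 and 44 counts in controls, or 8.04 and 11 CPM with 1-nitropyrene and 5.79 and 6.30 CPM in controls. It rose by 0.67 (SE 0.22, adjusted p = 0.0155, edgeR), and the call was lost in DESeq2 (adjusted p = 0.197) and without control replicate 1 or 1-nitropyrene replicate 3 (adjusted p up to 0.334, edgeR), with values from 0.42 to 0.88 over the libraries left out. Dctn3 (chromosome 4, 41714798 to 41723170), a smaller subunit of the same shoulder, had 25.1 and 27.8 CPM with 1-nitropyrene and 31.9 and 34.9 CPM in controls. It fell by 0.33 (SE 0.11, adjusted p = 0.0194, edgeR), and the call was lost in DESeq2 (adjusted p = 0.187) and without control replicate 2 or 1-nitropyrene replicate 2 (adjusted p up to 0.19, edgeR). The ratio of Dctn2 to Dctn3 counts was 0.321 and 0.397 with 1-nitropyrene and 0.182 and 0.180 in controls.

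Dctn1, the large arm subunit that binds microtubules and dynein, had 87.3 and 76.0 CPM with 1-nitropyrene and 93.8 and 86.8 CPM in controls (-0.15, SE 0.07, adjusted p = 0.0789, edgeR), with overlap of the groups. Its value rests on single libraries: without 1-nitropyrene replicate 2 it was -0.26 and passed (adjusted p = 0.00952, edgeR), and without 1-nitropyrene replicate 3 it was -0.058. It also passed without scaling factors (adjusted p = 0.0287, edgeR). Dctn4, of the pointed end of the filament, had 47.3 and 52.5 CPM with 1-nitropyrene and 43.8 and 47.1 CPM in controls (0.14, SE 0.09, adjusted p = 0.251, edgeR). Dctn5, at the same end, had 38 and 49 counts with 1-nitropyrene and 91 and 42 in controls (-0.56, SE 0.25, adjusted p = 0.0889, edgeR). Dctn6 had 1 count.

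With each of the 4 libraries left out in turn, 6 of the 14 calls stood every time, those of Tuba1a, Tuba1b, Tuba1c, Dynll1, Kif1b and Kif16b. DESeq2 called 6 of the 14, Dync1h1 in place of Kif16b. The direction of the 14 did not turn in any of these fits. Of the 41 members to which DESeq2 gave an adjusted p, it called 5 higher and 1 lower. It called 9.37% of all genes higher and 5.76% lower. Against a 1.2-fold change 0 members were called higher and 2 lower (Kif1b and Kif13b), against 3.09% and 2.77% of all genes. Without scaling factors 7 of 46 were called higher and 10 lower, against 11.2% and 13.1% of all genes. The fit with TMM factors gave 8 and 6 of 46. At an adjusted p under 0.01, 6 of 46 were called higher and 5 lower (9.74% and 7.34% of all genes). With no filter on low counts it was also 6 and 5, of 60 members (6.26% and 4.37% of all genes). Leaving out control replicate 1 gave 5 higher and 6 lower (8.74% and 6.47% of all genes), control replicate 2 gave 6 and 4 (9.51% and 7.49%), 1-nitropyrene replicate 2 gave 7 and 5 (10.8% and 8.08%) and 1-nitropyrene replicate 3 gave 6 and 5 (10.6% and 8.11%). Of the 29 tested members that share no exon bases with an opposite-strand gene, 4 were called higher and 6 lower, against 13.3% and 11.8% of all 4976 such genes.

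**Figure D4:**
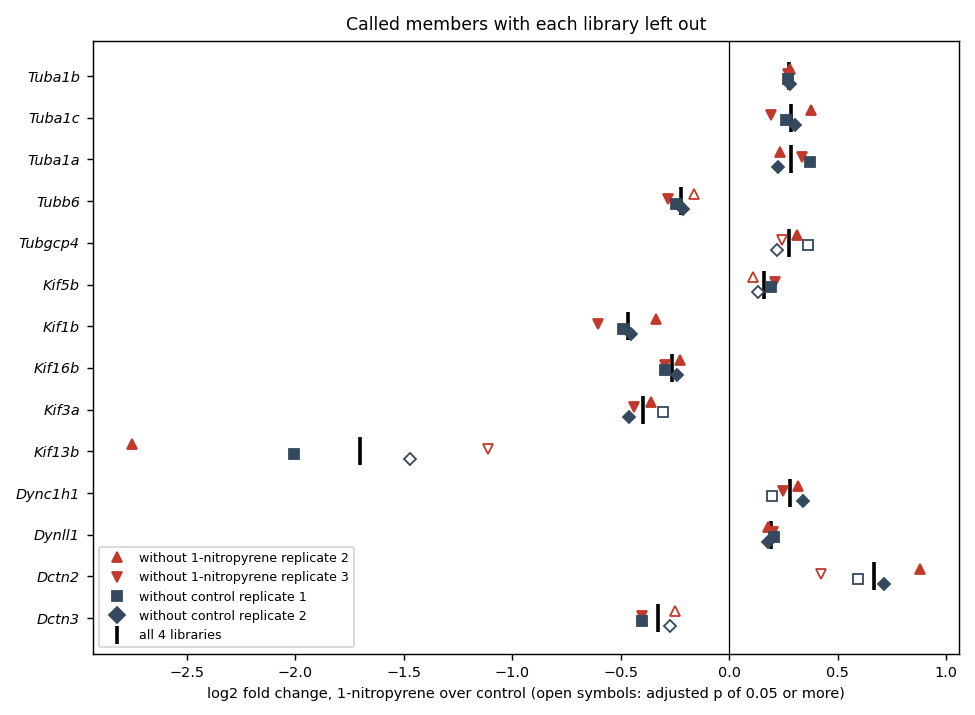
Log2 fold changes (x axis, 1-nitropyrene over control) of the 14 members past the test with all 4 libraries (black bars) and with each library left out (symbols, open where the adjusted p was 0.05 or more). Every value kept its sign, and Kif13b spread most widely, from -2.75 to -1.11.

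The other genes that build and regulate microtubules were followed in 8 lists of 133 symbols, 131 of them found as genes of the count table outside the members. Of these 80 were tested, 7 were higher and 10 lower with 1-nitropyrene, together 21.2% against the 24.5% of all genes, with a median log2 fold change of -0.03. Of 10 tested genes of tubulin folding 0 fell and 2 rose, which is 20% against the 13.2% of all genes called higher. Both are subunits of the chaperonin that folds tubulin and actin, of which 3 more tested subunits did not pass: Cct8 (0.16, SE 0.10, adjusted p = 0.241, edgeR), Cct4 (0.07, SE 0.05, adjusted p = 0.377) and Cct7 (0.01, SE 0.03, adjusted p = 0.938). Cct3 had 90.6 and 95.5 CPM with 1-nitropyrene and 79.3 and 71.6 CPM in controls (0.29, SE 0.07, adjusted p = 0.000192, edgeR), a call kept with each library left out. Tcp1 had 60.9 and 58.0 CPM with 1-nitropyrene and 51.4 and 50.7 CPM in controls (0.22, SE 0.08, adjusted p = 0.0358, edgeR), a call lost without control replicate 1, control replicate 2 or 1-nitropyrene replicate 2. Opposite-strand genes, Acat3 and Mrpl18, overlap 712 bases of the exons of Tcp1.

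Of 6 tested genes that sever or destabilize microtubules, 1 fell and 1 rose, together 33.3% against the 24.5% of all genes. Stmn1, which encodes stathmin, a protein that binds free tubulin dimers, had 15.2 and 16 CPM with 1-nitropyrene and 24.8 and 24.9 CPM in controls. The 4 values formed a pair of tight groups with a wide gap. It fell by 0.67 (SE 0.14, adjusted p = 1.52e-05, edgeR), and the call held in DESeq2 (adjusted p = 0.0086) and with each library left out. Fign, a severing enzyme, had 19.7 and 23.8 CPM with 1-nitropyrene and 15 and 16.3 CPM in controls (0.49, SE 0.14, adjusted p = 0.0046, edgeR), a call lost in DESeq2 (adjusted p = 0.132) and without control replicate 1 or 1-nitropyrene replicate 3.

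Of 10 tested genes of tubulin modification, 1 rose and 2 fell. Vash1, which removes the last residue of alpha-tubulin, had 12 and 9 counts with 1-nitropyrene and 40 and 26 in controls (-1.59, SE 0.42, adjusted p = 0.00135, edgeR), a call kept with each library left out. Tpgs2, a subunit of a glutamylating enzyme, fell by 0.43 (SE 0.15, adjusted p = 0.0215, edgeR), and Hdac6, a tubulin deacetylase, rose by 0.40 (SE 0.14, adjusted p = 0.0233, edgeR). Among the fits with 1 library left out, Tpgs2 lost its call without control replicate 1 or 1-nitropyrene replicate 3. Hdac6 kept its call, among these fits, only without 1-nitropyrene replicate 3. With 1 library left out Tpgs2 ranged from -0.65 to -0.25 and Hdac6 from 0.24 to 0.54. An opposite-strand gene, AW554918, overlaps 9 bases of the exons of Tpgs2.

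Of 16 tested microtubule-associated and plus-end genes, 3 fell, which is 18.8% against the 11.2% of all genes called lower. Camsap1, which caps minus ends, fell by 0.31 (SE 0.09, adjusted p = 0.00188, edgeR). The end-binding genes Mapre3 and Mapre2 fell by 0.39 (SE 0.12) and by 0.36 (SE 0.12), while Mapre1 was at 0.03 (SE 0.12). The Camsap1 call ended without control replicate 2, that of Mapre3 without control replicate 1 or 1-nitropyrene replicate 3, and that of Mapre2 without control replicate 2 or 1-nitropyrene replicate 2. All 3 calls ended in DESeq2 (adjusted p of 0.069 for Camsap1, 0.131 for Mapre3 and 0.16 for Mapre2), and the Mapre2 value ranged from -0.55 to -0.21 with 1 library left out.

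Of 14 tested dynein regulators 2 rose and 1 fell. Capza2, part of the cap of the dynactin filament and of actin, had 474 and 491 CPM with 1-nitropyrene and 417 and 410 CPM in controls (0.22, SE 0.03, adjusted p = 4.49e-09, edgeR), a call kept with each library left out. Pafah1b1, the dynein regulator mutated in human lissencephaly, rose by 0.11 (SE 0.03, adjusted p = 0.0101, edgeR), a call lost without control replicate 2 or 1-nitropyrene replicate 2. Hook2, an adaptor, had 19 and 16 counts with 1-nitropyrene and 47 and 39 in controls (-1.24, SE 0.35, adjusted p = 0.00271, edgeR), a call lost without control replicate 2.

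Of 9 tested kinesin partners 1 fell, the light chain Klc2 (-0.18, SE 0.07, adjusted p = 0.0366, edgeR), a call lost without control replicate 1 or 1-nitropyrene replicate 3. Of 3 tested partners of gamma-tubulin 1 fell, Cdk5rap2 (-0.96, SE 0.38, adjusted p = 0.0434, edgeR), with 16 and 17 counts with 1-nitropyrene and 38 and 29 in controls, a call lost with any library left out. Of 12 tested mitotic genes other than motors, Top2a, which untangles chromosomes, rose by 0.13 (SE 0.05, adjusted p = 0.0471, edgeR) and Ccna2, cyclin A, fell by 0.28 (SE 0.09, adjusted p = 0.0144, edgeR). Top2a lost its call in 11 of 17 alternatives, among them each other scaling, DESeq2 (adjusted p = 0.348) and the fits without control replicate 1 (where its value was 0.056) or 1-nitropyrene replicate 3. Ccna2 lost its call in 7 of 17 alternatives, and among the fits with 1 library left out it kept the call only without 1-nitropyrene replicate 2. In DESeq2 the calls of Capza2, Cct3 and Stmn1 stood, Vash1, Hook2 and Cdk5rap2 had no adjusted p, and the other calls of these lists were lost. Klc2 ranged from -0.23 to -0.11 and Pafah1b1 from 0.067 to 0.16 with 1 library left out. Opposite-strand genes overlap 439 bases of the exons of Klc2 (AC124502.1) and 510 bases of those of Ccna2 (Exosc9).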

How the data were processed

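Polyadenylated RNA of 4 libraries was measured. The authors deposited whole-number counts per gene with no normalization. Per the submitters' processing notes, the build was GRCm38 (mm10) and the tools included featureCounts 1.6.3, HISAT2 2.1.0 and DESeq2, with no roles stated. How multi-mapping reads and strand were handled, and which annotation release was used, is not given in the sources used here. Identifiers were matched to GENCODE M21 (53360 of 53465).

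Counts were analysed with edgeR 4.0.16 in R 4.3.3: filterByExpr on the group (7738 genes kept), TMM factors between 0.989 and 1.01, and the quasi-likelihood fit of edgeR 4 with an intercept and the treatment. The dispersion common to all genes was 0.000546, a biological coefficient of variation of 2.34%, and the prior degrees of freedom were infinite. The quasi-likelihood fit scales this spread by a further factor, so 2.34% is not the whole spread applied to a gene. Genes at a Benjamini-Hochberg adjusted p under 0.05 over all genes tested were called, two-sided. Standard errors were obtained from F as log2 fold change/√F, and intervals are at the 95% level. Replicates differed beyond sampling noise (chi-square per degree of freedom 2.05 between 1-nitropyrene libraries and 1.62 between controls). The fit was tested on simulated data drawn with a fixed dispersion for all genes, which differs from the spread in the real fit. It recovered 29.6% of changes of 1.25-fold, 48.4% of 1.5-fold and 86.2% of 2-fold, and 3.57% of calls were false. A gene that did not pass may thus still differ by a small fold.

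Members, gene lists and the rule for named genes (all called members, tested members with a mean of at least 10 CPM of total counts, and up to 3 called genes a list) were chosen with earlier results of these data known. The other tested members, which include Tuba3a, Tubb5, Dctn5, Kif11 and Kif13a, as well as Trp53bp1, Mapre1, Cct4, Cct7 and Cct8, were named after their values were seen. Alternatives were other scalings (RLE, upper quartile, none) and filters, DESeq2 1.42.0, limma-voom (limma 3.58.1), the older and the robust quasi-likelihood fits, an adjusted p under 0.01, a test against a 1.2-fold change, fits without rRNA loci or with protein-coding genes only, each library left out, and members without opposite-strand overlap. Shared stretches were exact matches of 50 bases on either strand between GENCODE M21 transcripts. Coding sequences were aligned globally with Biopython 1.88, and their letters are not reported here.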

Additional observations from a re-analysis of the deposited data

How the results depend on the processing

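No paired analysis was possible because the groups share only replicate number 2. The 8 members called higher and 6 called lower became 5 and 1 in DESeq2, 0 and 2 against a 1.2-fold change, and 7 and 10 without scaling factors. At a mean of at least 10 CPM, where 34 members were tested, they were 7 and 9. Among the 29 tested members that share no exons with an opposite-strand gene 4 were higher, since Tuba1b, Dync1h1, Kif5b and Tubgcp4 drop out, and 6 lower. With 1 library left out, 5 to 7 were higher and 4 to 6 lower. The members' median log2 fold change of -0.033 was -0.0361 with RLE factors, -0.0465 with upper quartile factors, -0.0631 without factors, 0.041 without a filter, 0.024 at a mean of at least 10 CPM, -0.030 in DESeq2, -0.029 with protein-coding genes only, and -0.033 to 0.025 with 1 library left out, so its sign is not fixed. Of the listed microtubule genes 7 were higher and 10 lower. These became 4 higher without scaling factors, 4 and 5 without a filter, 2 and 1 in DESeq2, 3 and 5 at an adjusted p under 0.01, and 0 and 3 against a 1.2-fold change. With 1 library left out they were 4 to 6 higher and 5 to 9 lower. No called gene that the text names turned its sign. Of the genes that did not pass, Tubg1, Dctn1, Dynll2 and Dync1li2 passed without scaling factors and at a mean of at least 10 CPM. Genes that did not pass turned their sign with 1 library left out, with these ranges over the 4 fits: Dync1i2 -0.00204 to 0.13, Tubgcp3 -0.11 to 0.11 (0.01 without 1-nitropyrene replicate 3), Tubgcp5 -0.0698 to 0.20, Kif1bp -0.0444 to 0.14, Kif21a -0.0459 to 0.42 and Kif2a -0.0609 to 0.11. The cause was not tested, beyond the lower number of libraries. A count of 0 allowed up to 0.341 and 0.349 CPM of total counts, without TMM factors, with 1-nitropyrene and 0.278 and 0.434 in controls, at a floor of 3 counts, for counting error only.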
